A study of Mus musculus with 32 samples.

Results

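Matrix proteases and their inhibitors were followed by name: the metalloproteinases Mmp2, Mmp3, Mmp9, Mmp13 and Mmp14, the tissue inhibitors Timp1, Timp2 and Timp3, urokinase (Plau) and the urokinase receptor (Plaur). Of these 10 genes, 8 had a row among the 17757 genes of the count table. Mmp2 and Timp3 were not analysed here. The data are polysome profiles of 4T1, a mouse mammary carcinoma line, grown as spheroids in a medium that mimics the nutrients of the lung. Ribosome-bearing mRNA was separated on a sucrose gradient into a polysomal part (mRNAs with many ribosomes) and a sub-polysomal part (mRNAs with few or none), and both parts of each spheroid pellet were sequenced.

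There were 4 conditions, each with 4 independent pellets. ASP shSCR carried a non-targeting shRNA and received 700 µM aspartate, NoASP shSCR carried the same shRNA without added aspartate, and ASP shGRIN2D and ASP shDHPS received 700 µM aspartate and carried an shRNA against Grin2d, an NMDA receptor subunit, or Dhps, deoxyhypusine synthase. All lines were lentivirally transduced, puromycin-selected polyclonal pools, all were cultured for 5 days, and each silenced gene was represented by 1 line, so that an effect of the line and of the silencing cannot be told apart. The comparisons ask what changes in ASP shSCR when aspartate is left out, or when its receptor subunit or the hypusination enzyme is silenced. They share the ASP shSCR pellets and are therefore not independent of each other. The 32 libraries held 12870563 to 25639437 counts (median 18168765).

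Matrix metalloproteinases are made as inactive zymogens and cut collagens, gelatin, laminin and other matrix proteins once their propeptide is removed. TIMPs bind the active site and block it, and a complex of Timp2 with the membrane-anchored Mmp14 also serves to activate pro-Mmp2 at the cell surface. Urokinase, held at the cell surface by its receptor, turns plasminogen into plasmin, which in turn cuts matrix and activates several pro-MMPs. Dhps carries out the first step of the hypusination of eIF5A, a translation factor that eases the passage of ribosomes through stretches of proline codons.

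The metalloproteinases are zinc enzymes, and the coding stretch of the zinc-binding site marks the 4 measured ones as a family. It is shown here from the GENCODE vM21 transcripts (GRCm38, all on the + strand, each within 1 coding exon), with the 3 zinc-binding histidine codons in capitals. It lies at chr9:7449775-7449807 in Mmp3, chr2:164951133-164951165 in Mmp9, chr9:7276573-7276605 in Mmp13 and chr14:54437627-54437659 in Mmp14.
Mmp3: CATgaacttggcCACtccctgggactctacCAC
Mmp9: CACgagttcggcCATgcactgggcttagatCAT
Mmp13: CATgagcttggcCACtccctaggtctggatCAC
Mmp14: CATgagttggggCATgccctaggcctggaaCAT

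Because the silenced Dhps bears on proline codons, the coding sequences were also read for them. None of the 8 transcripts held an in-frame run of 3 or more proline codons (CCNCCNCCN, sense strand). Such a run was present in 24.8% of the 10348 genes that had at least 50 reads per library on average and a usable transcript. Mmp9 had the highest share of proline codons among the 8, 66 of 730 codons (9.04%), with 5 runs of a pair of them. Plaur had the lowest, 17 of 327 codons (5.20%). The 20 codons with the most proline codons are shown for Mmp9 (8 of 20 codons, chr2:164952431-164952490) and Mmp14 (7 of 20 codons, chr14:54438682-54438741), with proline codons in capitals, since these were the 2 densest windows of the 8 transcripts.
Mmp9: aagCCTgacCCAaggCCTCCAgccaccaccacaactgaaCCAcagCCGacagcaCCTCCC
Mmp14: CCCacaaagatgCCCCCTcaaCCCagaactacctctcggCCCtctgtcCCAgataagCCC

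The silenced genes were examined first as a check of the labels. Sub-polysomal Dhps was at 40.2, 32.2, 41.0 and 39.6 CPM (reads of the gene relative to a fixed total of normalised reads) in ASP shSCR and at 9.54, 10.4, 9.63 and 8.44 CPM in ASP shDHPS, 4.02-fold lower (edgeR quasi-likelihood test with Benjamini-Hochberg adjustment, as for every adjusted p here unless another tool is named; adjusted p = 1.11e-08). Polysomal Dhps was 3.12-fold lower (adjusted p = 0.0167). That call was lost with the compared conditions alone and without ASP shSCR replicate 2, ASP shDHPS replicate 1 or ASP shDHPS replicate 3, at log2 differences of 1.48 to 1.65. Grin2d had few reads. It lay at 3.18 to 6.54 CPM in sub-polysomal ASP shSCR and at 1.76 to 2.73 CPM in ASP shGRIN2D (adjusted p = 0.232), and at 2.80 to 4.26 and 1.11 to 2.45 CPM in the polysomal libraries (adjusted p = 0.263). The ASP shGRIN2D libraries lay below those of ASP shSCR in both fractions, without overlap.

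The labelled cell type was also checked. Of 10 epithelial markers 9 were measured, and their summed level was 2211 to 9184 CPM per library, with Krt8 as the most abundant. Most markers of cells that a carcinoma line should lack were absent or near 0, with Thy1 as the largest exception. Of 8 leukocyte markers 4 were measured, with a summed level of 5.55 to 29.0 CPM, with the highest values in polysomal ASP shDHPS and most of it from Cd68, while Ptprc had a median of 4.5 reads and Csf1r of 0 reads. Of 5 endothelial markers only Pecam1 was measured, at a median of 4 reads. Of 8 fibroblast markers only Thy1 (median 129 CPM) and Pdgfra (12.6 CPM) were measured. The study's methods describe a Thy1 surface reporter in 4T1 cells used for flow cytometry. They do not say whether these spheroid lines carried it, and the source of the Thy1 reads was not tested. In bulk RNA, fewer cells of a type and less RNA per cell cannot be told apart.

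1 library stood apart from its fraction. For the 11046 genes with at least 10 reads in every library, the profile of each library was projected on the line between the average sub-polysomal (0) and average polysomal (1) profiles of the remaining conditions. ASP shSCR replicate 1 reached 0.372 in its polysomal library, against 0.777 to 1.27 in the other 15 polysomal libraries, and sub-polysomal libraries were at −0.11 to 0.16. The library at 0.777 was ASP shSCR replicate 2, so the reference condition held both the lowest and the next lowest polysomal library. The main differences of the 8 genes from ASP shSCR are also given without ASP shSCR replicate 1, which leaves replicate 2 in.

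The mRNAs of 7 of the 8 genes lay further in the polysomes than the typical mRNA, and Timp2 lay less far in. The measure is the log2 ratio of polysomal to sub-polysomal reads within a pellet, averaged over the 4 conditions. TMM normalisation centres it, so that 0 stands only roughly for an average mRNA. Among the 10348 genes with at least 50 reads and a usable transcript, the median was 0.15 with a run of 3 proline codons and 0.20 without. All 8 genes passed the test, 7 above and 1 below 0, in a setting in which 31.5% of all genes passed above and 31.1% below. The position of each gene among the others is therefore given beside its value.

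**Figure D1:**
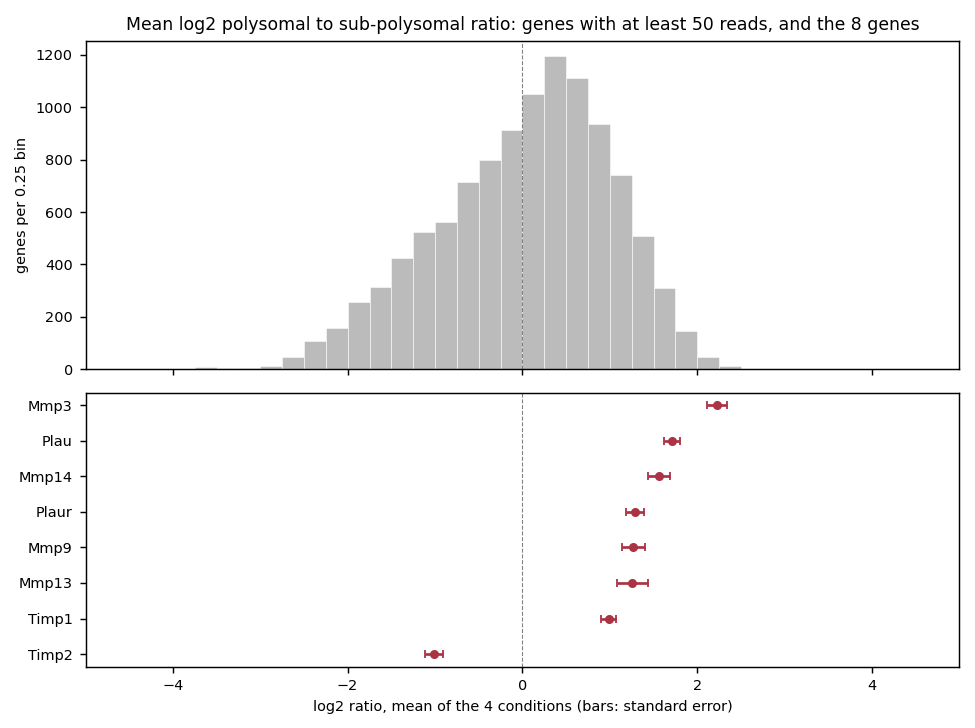
Top, distribution of the mean log2 polysomal to sub-polysomal ratio over the 10909 genes with at least 50 reads per library on average (genes per bin of 0.25). Bottom, the same ratio for the 8 genes with its standard error. Mmp3 sits at the right edge of the distribution at 2.23, and Timp2 is the one gene left of 0, at −1.01.

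Among the proteases, Mmp3 (stromelysin 1, which cuts proteoglycans and laminin and activates other MMPs) had a mean log2 ratio of 2.23 ± 0.117 (SE, 16 pellets; adjusted p = 8.67e-15), and only 0.165% of the 10909 genes with at least 50 reads had a higher one. Mmp14 (MT1-MMP, a membrane-bound collagenase) had 1.56 ± 0.123 (adjusted p = 1.29e-11), with 3.89% of genes above it. Mmp9 (gelatinase B) had 1.27 ± 0.129 (adjusted p = 1.62e-09) and Mmp13 (collagenase 3) 1.26 ± 0.178 (adjusted p = 6.04e-07), with 9.10% and 9.28% of genes above them. Mmp13 had the largest SE of the 8 and the fewest reads, 13 to 145 per library, against 148 to 1562 for Mmp9.

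The serine protease urokinase and its receptor were on the same side. Plau had a mean log2 ratio of 1.71 ± 0.092 (adjusted p = 1.27e-14), exceeded by 2.26% of genes, and Plaur 1.29 ± 0.0998 (adjusted p = 9.05e-12), exceeded by 8.64%. The 2 inhibitors parted. Timp1 had 0.99 ± 0.0839 (adjusted p = 5.29e-11), exceeded by 16.6% of genes, whereas Timp2 had −1.01 ± 0.106 (adjusted p = 2.65e-09), with 83.1% of genes above it. Timp2 has the longest transcript of the 8 in the annotation, 3709 bases with 660 coding and 2630 in the 3′ UTR, and Timp1 the shortest, 883 bases with 615 coding. The part of these lengths in the ratios was not tested. Without ASP shSCR replicate 1, the 8 mean ratios lay between −1.06 (Timp2) and 2.22 (Mmp3), each with the same sign and past the threshold.

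The ratio was above 0 in every one of the 16 pellets for Mmp3 (1.59 to 2.87), Mmp9 (0.27 to 2.07), Mmp13 (0.22 to 2.61), Mmp14 (0.55 to 2.24), Timp1 (0.18 to 1.39), Plau (1.36 to 2.12) and Plaur (0.39 to 2.31), and below 0 in every pellet for Timp2 (−1.84 to −0.19). Plau varied least and Mmp13 most.

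Levels of different genes were compared per kilobase of transcript, in CPM per kb. In the sub-polysomal libraries Timp2 was the most abundant, with a median of 170 CPM per kb (120 to 248 over 16 libraries), followed by Plaur (76.7), Timp1 (56.4), Plau (26.7), Mmp3 (21.1), Mmp14 (18.0), Mmp9 (4.84) and Mmp13 (0.649). The ranges of Timp2 and Plaur did not overlap, and those of Timp1 and Plau did not either, while Plaur and Timp1, and Plau, Mmp3 and Mmp14 among themselves, overlapped. In the polysomal libraries the order was Plaur (200, range 134 to 373), Timp1 (124), Mmp3 (121), Plau (105), Timp2 (90.5), Mmp14 (61.7), Mmp9 (12.7) and Mmp13 (1.72). There, neighbours from Plaur to Mmp14 overlapped in range, whereas Mmp14 and Mmp9 did not, nor did Mmp9 and Mmp13. Mmp9 and Mmp13 were the 2 least abundant of the 8 in both fractions, and Timp2 went from the first place to the fifth.

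**Figure D2:**
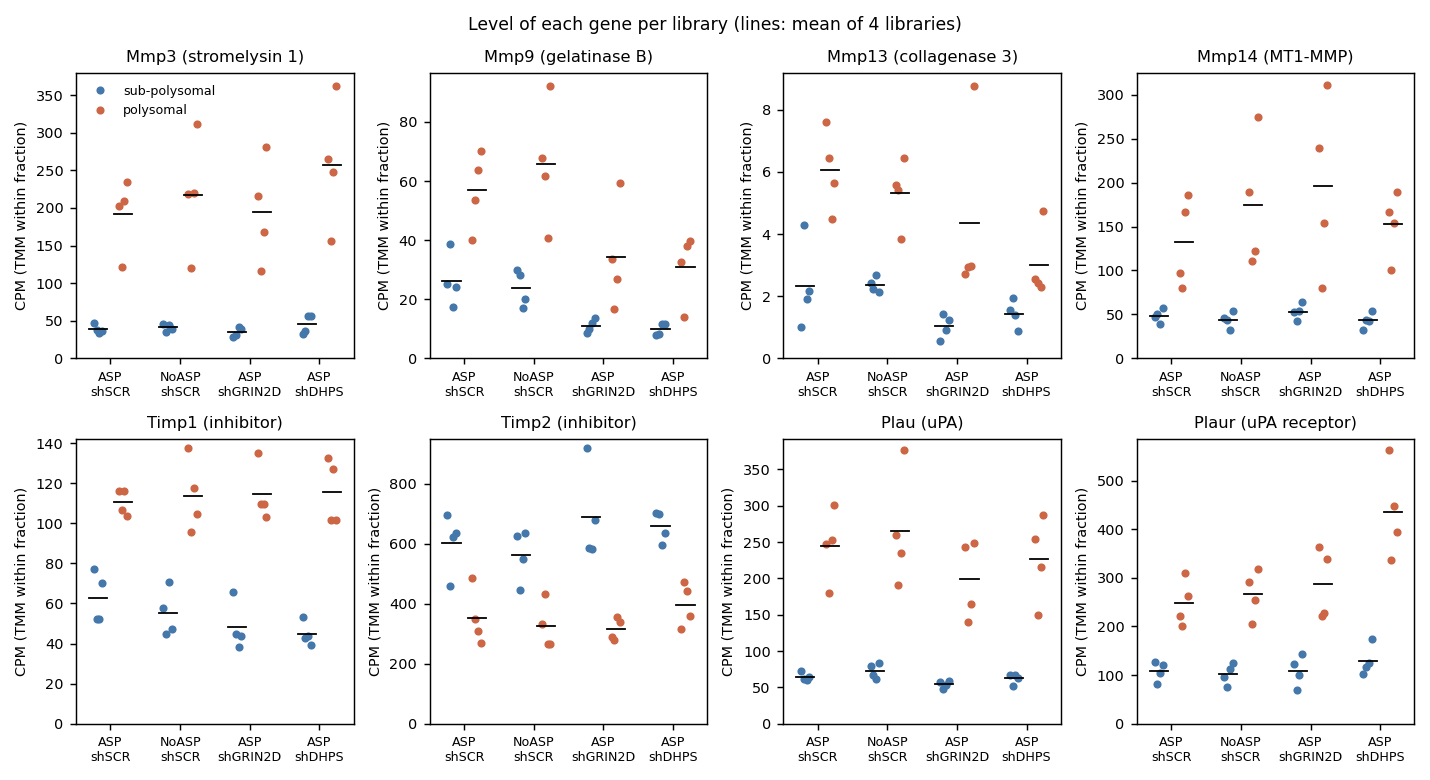
Level of the 8 genes in each library, in CPM after TMM normalisation within the fraction, by condition; points are libraries, black lines the mean of 4. Sub-polysomal Mmp9 is lower in each ASP shGRIN2D and ASP shDHPS library (7.75 to 13.8 CPM) than in any ASP shSCR or NoASP shSCR library (17.0 to 38.8 CPM). Polysomal Plaur is higher in ASP shDHPS (336 to 562 CPM) than in ASP shSCR (202 to 310 CPM).

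The one change between conditions that passed the test among the 8 genes was in Mmp9, the gelatinase that cuts type IV collagen and denatured collagen. Its sub-polysomal level was 25.2, 38.8, 17.2 and 24.0 CPM in replicates 1 to 4 of ASP shSCR and 30.1, 28.3, 17.0 and 20.02 CPM in NoASP shSCR. It was 8.71, 9.88, 12.1 and 13.8 CPM in ASP shGRIN2D and 7.75, 8.20, 11.7 and 11.6 CPM in ASP shDHPS. Every library of the 2 silenced lines lay below every library of the 2 shSCR conditions, and the shSCR conditions overlapped each other.

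Sub-polysomal Mmp9 was 2.37-fold higher in ASP shSCR than in ASP shGRIN2D (log2 1.25 ± 0.226 SE, n = 4 and 4; edgeR adjusted p = 0.00628) and 2.68-fold higher than in ASP shDHPS (log2 1.42 ± 0.227; edgeR adjusted p = 0.000939). In these comparisons 0.315% and 1.41% of all genes passed. Against NoASP shSCR the difference was 0.14 ± 0.22 (edgeR adjusted p = 0.912), with an interval of 2 SE either side from −0.30 to 0.58. In that comparison no gene passed with edgeR (percent called 0, with 871 genes at an unadjusted p under 0.05) and 1 gene with DESeq2. Without ASP shSCR replicate 1 the differences were 1.27 (edgeR adjusted p = 0.0126) and 1.44 (adjusted p = 0.002). Over every alternative, each pellet left out in turn included, they lay between 0.99 and 1.39 and between 1.18 and 1.57 and passed the threshold. The largest adjusted p was 0.0479, against ASP shGRIN2D without ASP shSCR replicate 2, whose Mmp9 level was the highest.

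In the polysomal libraries Mmp9 was at 40.1, 53.6, 63.7 and 70.2 CPM in ASP shSCR, 67.9, 61.9, 40.6 and 92.3 CPM in NoASP shSCR, 33.7, 16.7, 26.9 and 59.3 CPM in ASP shGRIN2D, and 32.5, 13.8, 38.2 and 39.7 CPM in ASP shDHPS. ASP shDHPS lay below ASP shSCR without overlap, by a small gap, and ASP shGRIN2D overlapped ASP shSCR. The differences, 0.74 ± 0.356 (edgeR adjusted p = 0.557) and 0.87 ± 0.357 (edgeR adjusted p = 0.231), did not pass, and were 0.87 and 1.01 without ASP shSCR replicate 1. The difference from ASP shGRIN2D was 1.14 (edgeR adjusted p = 0.555) without ASP shGRIN2D replicate 4, the highest library of that condition. Of all genes, 0.0169% and 0.169% passed in these polysomal comparisons. Whether the sub-polysomal and polysomal differences of Mmp9 differ from each other is what the ratio tests, and that was not past the threshold either (−0.43 ± 0.362 and −0.50 ± 0.362, edgeR adjusted p = 1 and 0.561). The ratio differences were −0.24 and −0.31 without ASP shSCR replicate 1.

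Keratins were also measured at lower levels in the sub-polysomal libraries of both silenced lines, with more calls against ASP shDHPS than against ASP shGRIN2D. Whether the lines differ in this was not tested. Of the 9 measured epithelial markers, 5 passed as higher in ASP shSCR than in ASP shDHPS, all of them keratins, Krt7 (log2 1.03), Krt19 (1.04), Krt14 (0.78), Krt18 (1.00) and Krt8 (0.74), where 1.41% of all genes passed. The other 4 did not pass, with Epcam at 0.54, Cldn7 at 0.32, Cldn4 at −0.01 and the adhesion protein E-cadherin (Cdh1) at −0.29. Against ASP shGRIN2D, where 0.315% of all genes passed, 1 of the 9 did, Krt7 (1.14). The other keratins were at 1.01 (Krt18, edgeR adjusted p = 0.062), 0.83 (Krt8, 0.0562), 0.64 (Krt19) and 0.29 (Krt14), and the other markers ran from −0.13 (Cdh1) to 0.59 (Cldn7). The calls of Krt7, Krt19 and Krt14 held in every alternative, while those of Krt18 and Krt8 were lost with 5 and 9 of the 16 pellets when each was left out, and fell to 0.60 and 0.53 without ASP shSCR replicate 2. The summed level of the 9 markers, in which the most abundant keratins weigh most, had a median of 3713 CPM in ASP shSCR (3353 to 5637), 3522 in NoASP shSCR (2942 to 4017), 2300 in ASP shGRIN2D (2211 to 2645) and 2414 in ASP shDHPS (2246 to 2796). In the polysomal libraries none of the 9 passed in either comparison. There the 5 keratins differed by 0.057 (Krt8) to 0.46 (Krt19) from ASP shDHPS and by −0.067 (Krt14) to 0.65 (Krt18) from ASP shGRIN2D, and the summed level overlapped between all conditions, with medians of 7065 CPM in ASP shSCR, 6701 in NoASP shSCR, 5201 in ASP shGRIN2D and 6723 in ASP shDHPS. Krt7 was also the gene whose sub-polysomal level was most like that of Mmp9 over the 16 libraries among 10908 genes with at least 50 reads (Pearson r = 0.95), followed by Clu, the secreted chaperone clusterin (r = 0.94). These coefficients are the highest of a search and describe levels from the same libraries. The part of the keratins in the difference of Mmp9 was not tested.

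Mmp13, the collagenase of fibrillar collagen, had few reads and no call. Its sub-polysomal level was 0.993, 4.30, 1.92 and 2.16 CPM in ASP shSCR, 2.43, 2.22, 2.68 and 2.14 CPM in NoASP shSCR, 0.569, 1.41, 0.903 and 1.24 CPM in ASP shGRIN2D and 1.55, 1.94, 1.38 and 0.891 CPM in ASP shDHPS. Both silenced lines overlapped ASP shSCR, and both lay below NoASP shSCR. The differences from ASP shSCR were 1.18 ± 0.408 (ASP shGRIN2D, unadjusted p = 0.0073, edgeR adjusted p = 0.252) and 0.68 ± 0.396 (ASP shDHPS, edgeR adjusted p = 0.406). In the polysomal libraries they were 0.49 ± 0.364 (edgeR adjusted p = 0.784) and 1.00 ± 0.369 (edgeR adjusted p = 0.188). Single pellets moved these values. Without ASP shSCR replicate 2, whose sub-polysomal level was the highest, the sub-polysomal differences were 0.70 and 0.22, and without ASP shSCR replicate 1 they were 1.44 and 0.95. The polysomal difference from ASP shGRIN2D was 1.07 without ASP shGRIN2D replicate 4. No such value passed the threshold.

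Mmp3 and Mmp14 showed no level difference past the threshold. For Mmp3 the 6 level differences ran from −0.42 (polysomal, minus ASP shDHPS) to 0.14 (sub-polysomal, minus ASP shGRIN2D), and for Mmp14 from −0.56 (polysomal, minus ASP shGRIN2D) to 0.17 (sub-polysomal, minus ASP shDHPS). They ran from −0.46 to 0.031 for Mmp3 and from −0.44 to 0.18 for Mmp14 without ASP shSCR replicate 1. Other single pellets moved the lowest values further. With each pellet left out in turn, polysomal Mmp3 minus ASP shDHPS ran from −0.60 to −0.21. Polysomal Mmp14 minus ASP shGRIN2D ran from −0.82 to −0.25. Polysomal Mmp3 was at 202, 122, 209 and 235 CPM in ASP shSCR, 219, 120, 219 and 312 CPM in NoASP shSCR, 216, 116, 168 and 281 CPM in ASP shGRIN2D and 265, 156, 248 and 362 CPM in ASP shDHPS, with overlap between all conditions. Polysomal Mmp14 spread widely within each condition. It was at 97.4, 79.9, 167 and 186 CPM in ASP shSCR, 189, 110, 122 and 275 CPM in NoASP shSCR, 239, 79.7, 154 and 310 CPM in ASP shGRIN2D and 166, 100, 154 and 189 CPM in ASP shDHPS. In each condition replicate 4 was highest and replicate 2 lowest. The same held for polysomal Mmp3 and polysomal Plau in all 4 conditions, Mmp9 was highest in replicate 4 in all 4, and Plaur was lowest in replicate 2 in all 4. The labels give the replicate number no meaning beyond the pellet.

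**Figure D3:**
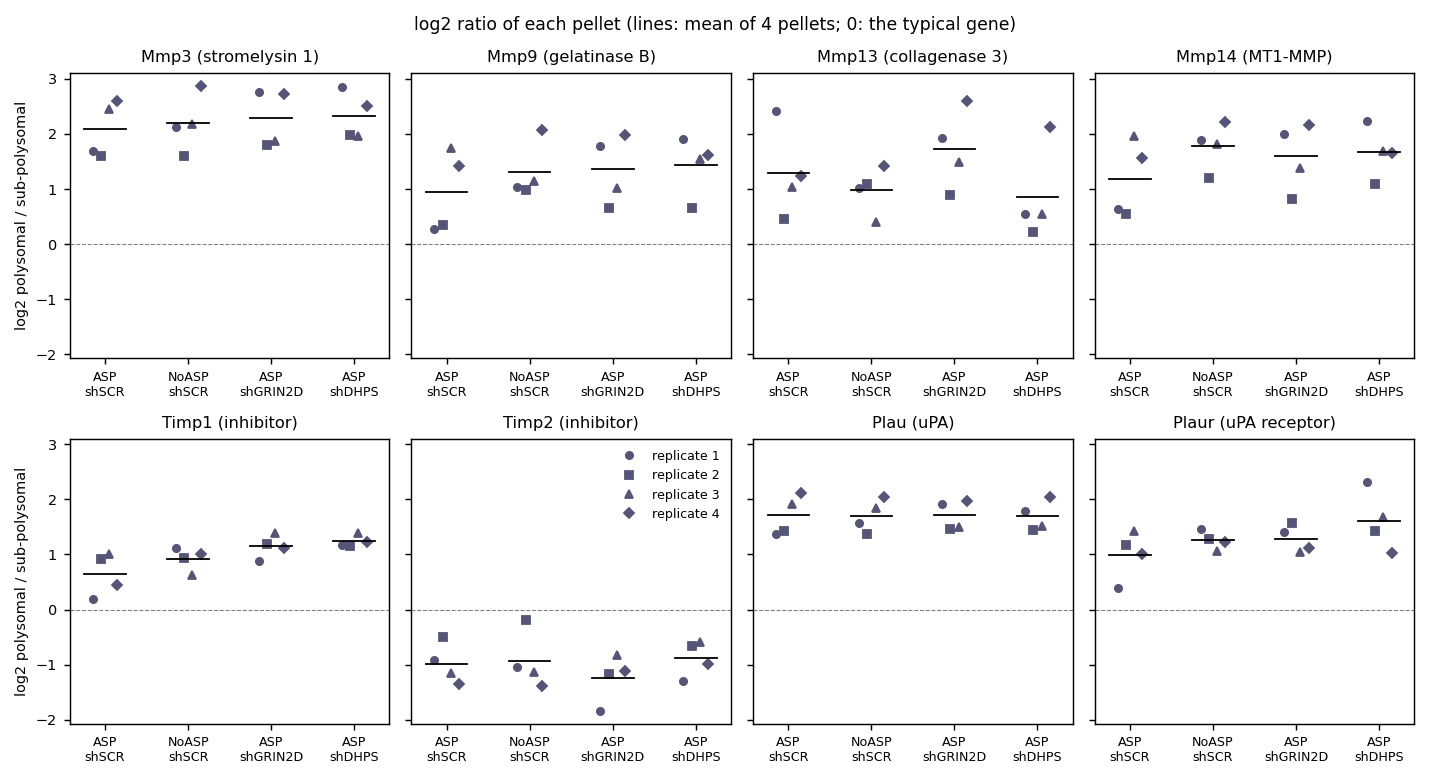
log2 polysomal to sub-polysomal ratio of each pellet for the 8 genes, by condition, with the replicate number as the symbol and the mean of 4 pellets as a line. The TMM normalisation places the typical gene roughly at 0. All points of 7 genes lie above 0 and all points of Timp2 below. In ASP shDHPS the 4 pellets of Timp1 (1.16 to 1.39) lie above those of ASP shSCR (0.18 to 1.01).

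For the inhibitors, the ratio of Timp1 had its lowest mean in ASP shSCR. It was 0.18, 0.91, 1.01 and 0.45 in replicates 1 to 4 of ASP shSCR, 1.11, 0.94, 0.63 and 1.01 in NoASP shSCR, 0.88, 1.19, 1.39 and 1.12 in ASP shGRIN2D and 1.17, 1.16, 1.39 and 1.22 in ASP shDHPS. ASP shSCR lay below ASP shDHPS without overlap and overlapped the other 2 conditions, with replicate 1, the pellet whose polysomal library stood apart, as its lowest value.

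The difference of ASP shSCR from ASP shDHPS was −0.60 ± 0.235 (unadjusted p = 0.0175; edgeR adjusted p = 0.252, and 0.0321 with DESeq2's Wald test), and −0.48 without ASP shSCR replicate 1 (edgeR adjusted p = 0.361). Against ASP shGRIN2D it was −0.51 ± 0.236 (edgeR adjusted p = 1) and against NoASP shSCR −0.28 ± 0.235 (edgeR adjusted p = 1), and −0.39 and −0.15 without ASP shSCR replicate 1. The polysomal level differences of Timp1 ran from −0.07 to −0.04, and its sub-polysomal level in ASP shSCR was 0.19 to 0.50 higher, none past the threshold (0.076 to 0.38 without ASP shSCR replicate 1). The sub-polysomal level of Timp2 was 695, 459, 622 and 638 CPM in ASP shSCR, 625, 445, 548 and 637 CPM in NoASP shSCR, 919, 586, 581 and 678 CPM in ASP shGRIN2D and 703, 700, 597 and 635 CPM in ASP shDHPS, with overlap between all conditions. For Timp2 none of the 9 differences between conditions passed. The 6 level differences ran from −0.20 to 0.17 and the 3 ratio differences from −0.10 to 0.26, and from −0.37 to 0.023 and −0.16 to 0.20 without ASP shSCR replicate 1.

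Plau, urokinase, had nearly equal ratios in the 4 conditions. The differences of ASP shSCR were 0.01 ± 0.253 (NoASP shSCR), −0.00 ± 0.253 (ASP shGRIN2D) and 0.01 ± 0.254 (ASP shDHPS), and intervals of 2 SE either side reached from −0.51 to 0.52, so that shifts within that range were not excluded. With ASP shSCR replicate 1 left out the differences were 0.099, 0.073 and 0.086. Its receptor Plaur had its highest mean in ASP shDHPS in the polysomal libraries. It was at 221, 202, 310 and 264 CPM in ASP shSCR, 291, 205, 255 and 318 CPM in NoASP shSCR, 363, 222, 229 and 340 CPM in ASP shGRIN2D and 562, 336, 447 and 394 CPM in ASP shDHPS. The 4 ASP shDHPS libraries lay above all of ASP shSCR and NoASP shSCR, and the other 3 conditions overlapped.

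The polysomal Plaur level of ASP shSCR minus ASP shDHPS was −0.80 ± 0.225 (unadjusted p = 0.00202), which did not pass with edgeR (adjusted p = 0.113). It passed with DESeq2 (adjusted p = 0.0255), and with a replicate block in edgeR (−0.79, adjusted p = 0.0277). The labels do not tie the replicate numbers across conditions. Without ASP shSCR replicate 1 it was −0.75 (edgeR adjusted p = 0.147). The sub-polysomal level differed by −0.25 ± 0.2 (edgeR adjusted p = 0.57) and the ratio by −0.61 ± 0.279 (edgeR adjusted p = 0.333), or −0.33 and −0.44 without ASP shSCR replicate 1. The ratio difference was −0.38 (edgeR adjusted p = 0.748) without ASP shDHPS replicate 1. The ratio of Plaur in ASP shDHPS replicate 1, 2.31, was the highest of its 16 pellets, and that in ASP shSCR replicate 1, 0.39, the lowest. Leukocyte markers, too, had their highest summed level in polysomal ASP shDHPS. The summed polysomal level of the 4 measured ones of 8, most of it Cd68, was 22.5 to 29.0 CPM in ASP shDHPS, against 12.3 to 15.4 in ASP shSCR, 9.81 to 16.4 in NoASP shSCR and 15.7 to 22.5 in ASP shGRIN2D. None of the 4 passed, and the difference of polysomal Cd68 was −0.94 ± 0.21 (edgeR adjusted p = 0.0684). The defining markers Ptprc and Csf1r were at or near 0, as given above, and the part of these genes in the difference of Plaur was not tested.

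**Figure D4:**
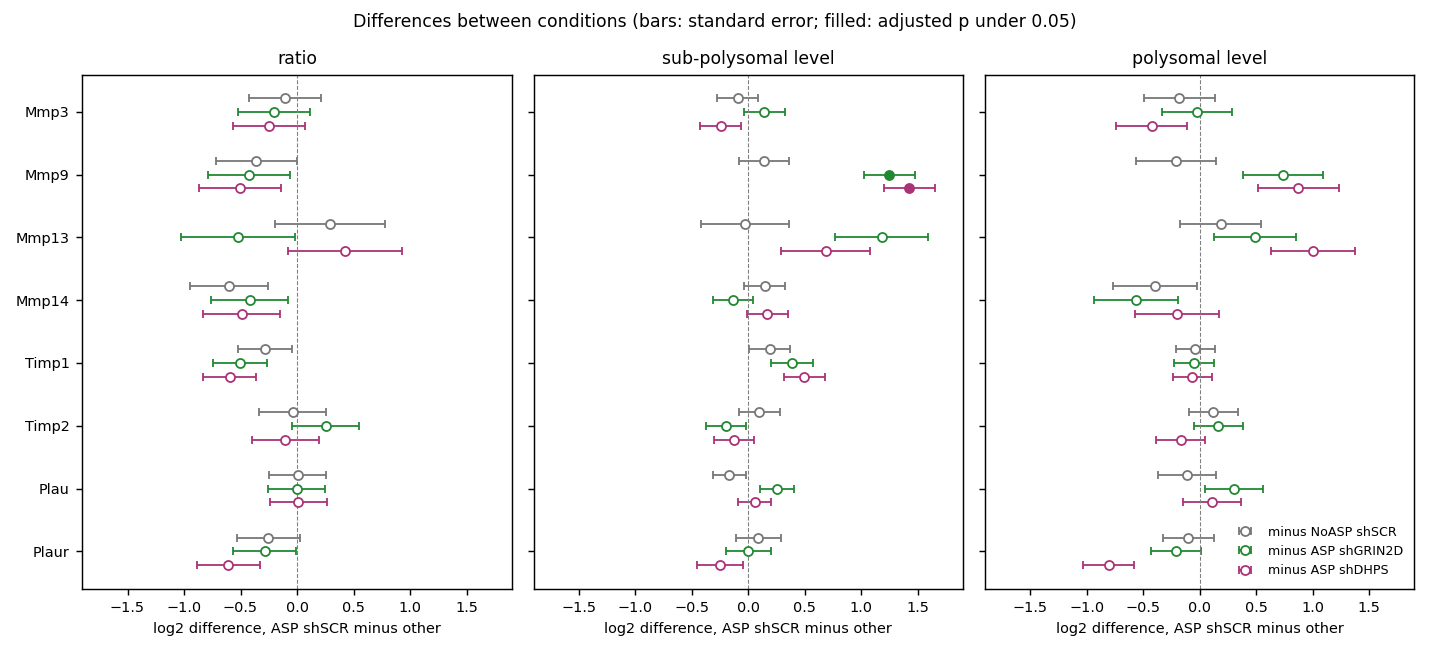
log2 difference of ASP shSCR minus each other condition for the 8 genes, in the ratio, the sub-polysomal level and the polysomal level, with standard errors; filled points passed an adjusted p of 0.05 in edgeR. The filled points are sub-polysomal Mmp9 minus ASP shGRIN2D (1.25) and minus ASP shDHPS (1.42).

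None of the 24 ratio differences of the 8 genes passed with edgeR. Among all genes 0% passed in the ratio against NoASP shSCR (343 genes at an unadjusted p under 0.05, and 0 with DESeq2) and 0% against ASP shGRIN2D (571 genes, and 0 with DESeq2), while 0.208% passed against ASP shDHPS, all of them with a higher ratio in ASP shSCR. In the polysomal level against NoASP shSCR 0% passed (1376 genes at an unadjusted p under 0.05, and 1 with DESeq2). The ratio differences of Mmp3, Mmp9, Mmp14, Timp1 and Plaur were below 0 in all 3 comparisons, which share the ASP shSCR pellets. Without ASP shSCR replicate 1, that of Mmp3 against NoASP shSCR was above 0 (0.012), those of Mmp9 and Plaur against NoASP shSCR went from −0.36 to −0.15 and from −0.26 to −0.072, and the others stayed below 0. For Mmp14 they were −0.60 ± 0.342, −0.42 ± 0.343 and −0.49 ± 0.342, and −0.44, −0.27 and −0.34 without ASP shSCR replicate 1. With each pellet left out in turn, those of Mmp14 ran from −0.86 to −0.39 (NoASP shSCR), −0.68 to −0.22 (ASP shGRIN2D) and −0.75 to −0.29 (ASP shDHPS). Median ratio differences against ASP shDHPS were −0.04 over the 2565 genes with a run of 3 proline codons and 0.01 over the 7783 without one, a group to which the 8 genes belong.

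Other genes of matrix turnover were read from lists, whose counts in the mean ratio stand against 31.5% of all genes above 0 and 31.1% below. Of 12 further MMPs and inhibitors measured (20 named), 5 passed above 0 and 1 below in the mean ratio, with a median of 0.31 beside −0.06 over all genes, and 4 of the 12 had at least 50 reads. Mmp10 (stromelysin 2), a close relative of Mmp3, had 2.19, a value near that of Mmp3 itself, and Mmp11 (0.32) and the membrane-anchored MMP inhibitor Reck (0.30, not past the threshold) lay near the typical gene. Of 13 measured genes of the plasminogen system (15 named), 12 passed above 0 and 1 below, with a median of 1.37. The 1 below was Serpinf2, with 1.375 reads per library on average, and 11 of the 13 had at least 50 reads. Anxa2 (2.06), a plasminogen-binding annexin, Serpine2 (1.37), a urokinase inhibitor, and Plgrkt (1.42), a plasminogen receptor, had the lowest p. None of these 25 genes passed in any of the 9 comparisons between conditions, in which 0% to 1.41% of all genes did.

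The other lists had 1 or 2 calls each between conditions, beside the same 0% to 1.41% of all genes. Of 16 measured cathepsins and cystatins (18 named), 11 passed above 0 in the mean ratio and 1 below, led by the lysosomal proteases Ctsl (2.37), Lgmn (1.69) and Ctsa (1.08). In this list Lgmn was lower in sub-polysomal ASP shSCR than in ASP shDHPS (−0.73 ± 0.19; edgeR adjusted p = 0.0487) and the cysteine protease inhibitor Cst6 was lower in the polysomal libraries (−1.11 ± 0.223; edgeR adjusted p = 0.0498). Of 19 ADAM and ADAMTS proteases (31 named), 9 passed above 0 and 4 below in the mean ratio, among them Adam17 (1.05), the sheddase of TNF, Adamts8 (1.32) and Adamts10 (−1.39), with a median of 0.31. Adamts10 was higher in sub-polysomal ASP shSCR than in ASP shDHPS (0.67 ± 0.176; edgeR adjusted p = 0.0498). These 3 calls between conditions lay close to the threshold. With each of the 16 pellets left out in turn, Lgmn and Adamts10 each lost the call in 10 fits and Cst6 in 12, with adjusted p of up to 0.154, 0.205 and 0.267.

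Of 14 membrane and related serine proteases and their inhibitors (17 named), 3 passed above 0 and 5 below, with a median of −0.13. The proprotein convertase Furin, which activates pro-Mmp14, had a ratio of −1.53, opposite in sign to that of Mmp14, while Htra1, a secreted serine protease, had 1.37 and Prss8 1.15. Htra1 was higher in sub-polysomal ASP shSCR than in ASP shGRIN2D (0.89 ± 0.173; edgeR adjusted p = 0.0126), and Tmprss6, with 27.5 reads per library on average, was higher in sub-polysomal ASP shSCR than in ASP shDHPS (2.15 ± 0.547; edgeR adjusted p = 0.0394). The call of Htra1 was lost without ASP shSCR replicate 1 (adjusted p = 0.0548) or ASP shGRIN2D replicate 1 (0.0627), and that of Tmprss6 in 6 of the 16 fits with a pellet left out.

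The list of AP-1 and ETS factors and inducers holds known regulators of MMP genes, and its 20 genes were all measured. In the mean ratio 10 passed above 0 and 5 below, with a median of 0.66. The lowest p were those of the cytokine Il1a (1.27), Jund (−2.51), an AP-1 subunit, and Etv4 (−1.21), an ETS factor. In the sub-polysomal libraries Il1a (−0.87 ± 0.164; edgeR adjusted p = 0.00452) and Atf3 (−1.21 ± 0.241; edgeR adjusted p = 0.00773) were lower in ASP shSCR than in ASP shDHPS, the opposite direction to Mmp9 in the same libraries. Both calls held in every alternative, and no other gene of the list passed in any comparison between conditions.

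Likeness to the other 7 genes was read in the same way as for Mmp9, as the 2 genes with the highest Pearson r over the 16 sub-polysomal libraries. They were Stip1 and Cpsf3 for Mmp3, Mnat1 and Inhba for Mmp13, Tcf7l1 and Ciz1 for Mmp14, Dut and Phb2 for Timp1, Pgrmc2 and Mrps2 for Timp2, Terf2 and Pars2 for Plau, and Smpd4 and Hmgxb3 for Plaur, with r from 0.80 (Inhba) to 0.94 (Dut). These are the highest of 10908 coefficients per gene. None of the 8 genes was among the likest of another.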

How the data were processed

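The authors deposited read counts for 17757 genes in 32 libraries, made with a stranded mRNA kit. Per the labels and the study's methods, they trimmed the reads with Trim Galore 0.6.6, mapped them to GRCm39 with STAR 2.6.1, quantified them with Salmon 1.4.0, rounded the estimates to whole counts and kept a gene only where some group had counts for it in 3 or more of its 4 replicates. Reads shared by close paralogs such as Mmp1a and Mmp1b were divided by estimation, so their values are uncertain. Tables of the authors' own fold changes, p-values and gene-set scores were not used. 0 sample columns were left unmapped.

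Counts were tested as deposited with edgeR 4.0.16 in R 4.3.3 (TMM, quasi-likelihood F-test, two-sided, Benjamini-Hochberg over all 17757 genes, threshold 0.05). The ratio model held 1 term per pellet, which pairs the 2 fractions, and 1 log2 ratio per condition over all libraries. Levels were tested over the 16 libraries of a fraction, with the condition as the one term. SE is the absolute log2 value divided by the square root of F. A prior count of 2 was added for the log2 ratio of a pellet. The steps were run on simulated counts with known changes. Those counts held no pellet or replicate effect and no library that stood apart, so they do not show how the tests fare with these. P-values set each value against the spread between pellets, which does not cover the spread between lines.

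All 10 genes were to be described, by tests where they had at least 50 reads per library on average. From each other list the genes past the threshold are named, or the up to 3 with the lowest p and at least 50 reads where none or more than 3 passed, and other names were chosen after their values were seen. The genes and lists were chosen with earlier results of these data known. Transcripts came from GENCODE vM21 (GRCm38), 1 per gene (APPRIS principal, then the longest coding part), since no GRCm39 annotation was used here. Alternatives were DESeq2 1.42.0, DESeq2 size factors, filterByExpr, a replicate block, no pellet term, the compared conditions alone, other prior counts, and leaving out each pellet.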

Additional observations from a re-analysis of the deposited data

Results flagged for a closer look

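In groups of 4, a value was marked where its gap to the nearest other value exceeded Dixon's 95% limit as a share of the group's range. Of 96 groups (8 genes, 4 conditions, the ratio and both levels), 3 were marked, and chance marks about 1 in 20, 4.8 of 96. All 3 were the highest value of a condition and all were replicate 4. The log2 ratio of Mmp9 in NoASP shSCR replicate 4 was 2.07 and the other pellets lay at 0.98 to 1.15. The polysomal level of Mmp13 was 8.76 CPM in ASP shGRIN2D replicate 4, with the others at 2.72 to 2.96 CPM, and 4.74 CPM in ASP shDHPS replicate 4, with the others at 2.29 to 2.56 CPM.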

How the results depend on the processing

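The 8 mean ratios and the 2 calls of Mmp9 kept their direction and passed the threshold under every alternative run. Among the 72 tests of the 8 genes between conditions, the calls that changed were Timp1 in the ratio against ASP shDHPS (DESeq2 adjusted p = 0.0321) and polysomal Plaur against ASP shDHPS (DESeq2 adjusted p = 0.0255 and, with a replicate block, −0.79 and edgeR adjusted p = 0.0277). The replicate numbers are not tied across conditions in the labels. Same-numbered pellets of different conditions deviated together more than other pairs in the median, though not in every pair. Their r over genes was −0.24 to 0.64 in the ratio, −0.25 to 0.46 sub-polysomal and −0.18 to 0.68 polysomal. The medians were 0.13, 0.21 and 0.27, beside −0.03, −0.08 and −0.09 for other pairs. Of 16 pellets, 10, 13 and 11 correlated best with their own number. The block is given as an alternative because the labels do not tie the numbers. The main fits hold no term for the replicate number, so any spread shared by a number stays in them. Its source was not tested. Polysomal Dhps against ASP shDHPS lost its call with the compared conditions alone (adjusted p = 0.108) and without ASP shSCR replicate 2, ASP shDHPS replicate 1 or ASP shDHPS replicate 3 (0.0546, 0.0963 and 0.111).

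Counts over all genes moved more. In the ratio against ASP shDHPS, 37 genes passed, and 664 with DESeq2, 0 with DESeq2 size factors, 188 with filterByExpr, 231 with the replicate block, 0 without the pellet term, 0 with the compared conditions alone, and 0 to 159 with 1 pellet left out. For the sub-polysomal level the count went from 56 to 231 (DESeq2) and 195 (replicate block) against ASP shGRIN2D, and from 251 to 652 and 758 against ASP shDHPS, with 23 to 64 and 80 to 370 when a pellet was left out. For the polysomal level it went from 3 to 69 (DESeq2), 7 (DESeq2 size factors), 27 (replicate block) and 0 (compared alone) against ASP shGRIN2D, with 0 to 98 when a pellet was left out. Against ASP shDHPS it went from 30 to 554, 18 (filterByExpr), 405 (replicate block) and 1 (compared alone), with 0 to 304. Both levels against NoASP shSCR went from 0 to 1 with DESeq2. The cause was not tested.

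Of the 80 tests of the 8 genes, 20 changed sign under an alternative, none of them past the threshold and each at most 0.763 SE from 0. With 1 pellet left out, ratio differences ran from −0.30 to 0.12 (Mmp3), −0.10 to 0.60 (Mmp13), −0.20 to 0.21 (Timp2) and −0.13 to 0.12 (Plau) against NoASP shSCR, from −0.14 to 0.11 (Plau) against ASP shGRIN2D and from −0.28 to 0.022 (Timp2) and −0.13 to 0.12 (Plau) against ASP shDHPS. Sub-polysomal levels ran from −0.10 to 0.29 (Mmp9), −0.50 to 0.23 (Mmp13) and −0.031 to 0.20 (Plaur) against NoASP shSCR, from −0.16 to 0.16 (Plaur) against ASP shGRIN2D and from −0.027 to 0.092 (Plau) against ASP shDHPS. Polysomal levels ran from −0.13 to 0.062 (Timp1), −0.10 to 0.29 (Timp2) and −0.24 to 0.054 (Plau) against NoASP shSCR, from −0.21 to 0.20 (Mmp3), −0.10 to 0.039 (Timp1) and −0.029 to 0.28 (Timp2) against ASP shGRIN2D, and from −0.12 to 0.0055 (Timp1) and −0.045 to 0.24 (Plau) against ASP shDHPS. Other sign changes were in the ratio of Plau, −0.0050 without the pellet term (NoASP shSCR), 0.036 with filterByExpr (ASP shGRIN2D), and −0.035 with DESeq2 and −0.035 with DESeq2 size factors (ASP shDHPS). Against ASP shGRIN2D, sub-polysomal Plaur was 0.026 with the replicate block and 0.0035 with the compared conditions alone, and polysomal Mmp3 was 0.0093 with the replicate block. The prior count of the pellet ratios changed no sign. Mmp13, with 13 to 145 reads per library, had SEs between conditions of 0.36 to 0.51.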
